A study of Mus musculus with 3 samples.

Results

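The 8 genes described here, Ccr7, Fscn1, Ccl22, Ccl17, Il4i1, Cacnb3, Flt3 and Zbtb46, belong to the programme of the mature migratory dendritic cell. They were chosen by name, out of 32285 genes measured, and all 8 were found in each library. Mouse hearts of 3 groups, labelled MI-E, MI and Sham, were profiled in 1 single-cell library each, from cells sorted for CD45, a surface protein of leukocytes. All 3 came from C57BL/6J mice aged 8-9 weeks. MI stands for myocardial infarction and Sham is the control, while MI-E is not expanded in the labels. The labels give the same account of coronary ligation for all 3 groups, Sham included. They state no interval between surgery and sampling, and no count of hearts per library. With 1 library per group no difference between groups has a replicate check, no test was possible, and every interval below is a 95% interval that covers counting error only.

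Dendritic cells take up antigen in tissues and carry it through lymphatic vessels to the draining lymph node. On maturation they lose part of their phagocytic programme and gain the chemokine receptor CCR7, which follows the ligands CCL19 and CCL21, together with actin-bundling and cytoskeletal proteins that shape long dendrites. They also secrete CCL22 and CCL17, which attract T cells that carry CCR4. Mature cells of this kind have been described in many tissues and tumours, where they hold both costimulatory and inhibitory molecules.

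After filtering, 11989 cells were kept in MI-E, 8184 in MI and 10098 in Sham. Median UMIs (unique molecular identifiers, each standing for 1 captured RNA molecule) per kept cell were 7409 in MI-E, 9463.5 in MI and 2822 in Sham. The libraries shared between 26 and 45 cell barcodes per pair. Cells were grouped without the 8 genes and named from markers that do not include them. The dendritic cell class held 522 cells in MI-E, 293 in MI and 131 in Sham, which is 4.35% (3.996 to 4.73), 3.58% (3.19 to 4.01) and 1.30% (1.09 to 1.54) of kept cells. All 9 type 2 and all 9 type 1 dendritic cell markers were detected in the class in each library. Of the 11 mature dendritic cell markers, 10 were detected in MI-E, all 11 in MI and 7 in Sham. Markers of other cells were present too. The 13 macrophage markers summed to 2685 CPM (UMIs per 1000000 UMIs of the class) in MI-E, 1545 in MI and 1241 in Sham. The 8 neutrophil markers summed to 356, 88.3 and 77.3 CPM, and the 8 B cell markers to 88.8, 54.2 and 321 CPM, in MI-E, MI and Sham.

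At the level of whole cell classes, some of the genes were highest in dendritic cells and others were not. Mature cells within the dendritic cell class are described further below. Of the 8 genes, 6 had their highest level in the dendritic cell class in MI-E, 6 in MI and 4 in Sham, among the classes with at least 50 cells. Ccl22, Ccl17, Il4i1 and Flt3 were highest there in all 3 libraries. Ccr7 was highest in B cells in MI-E and Sham, Fscn1 was highest in endothelial cells in all 3 libraries, and Cacnb3 and Zbtb46 were level between dendritic cells and a stromal class within counting error. In these sorted cells a UMI of Ccr7, Fscn1, Cacnb3 or Zbtb46 alone therefore did not mark a dendritic cell.

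**Figure D1:**
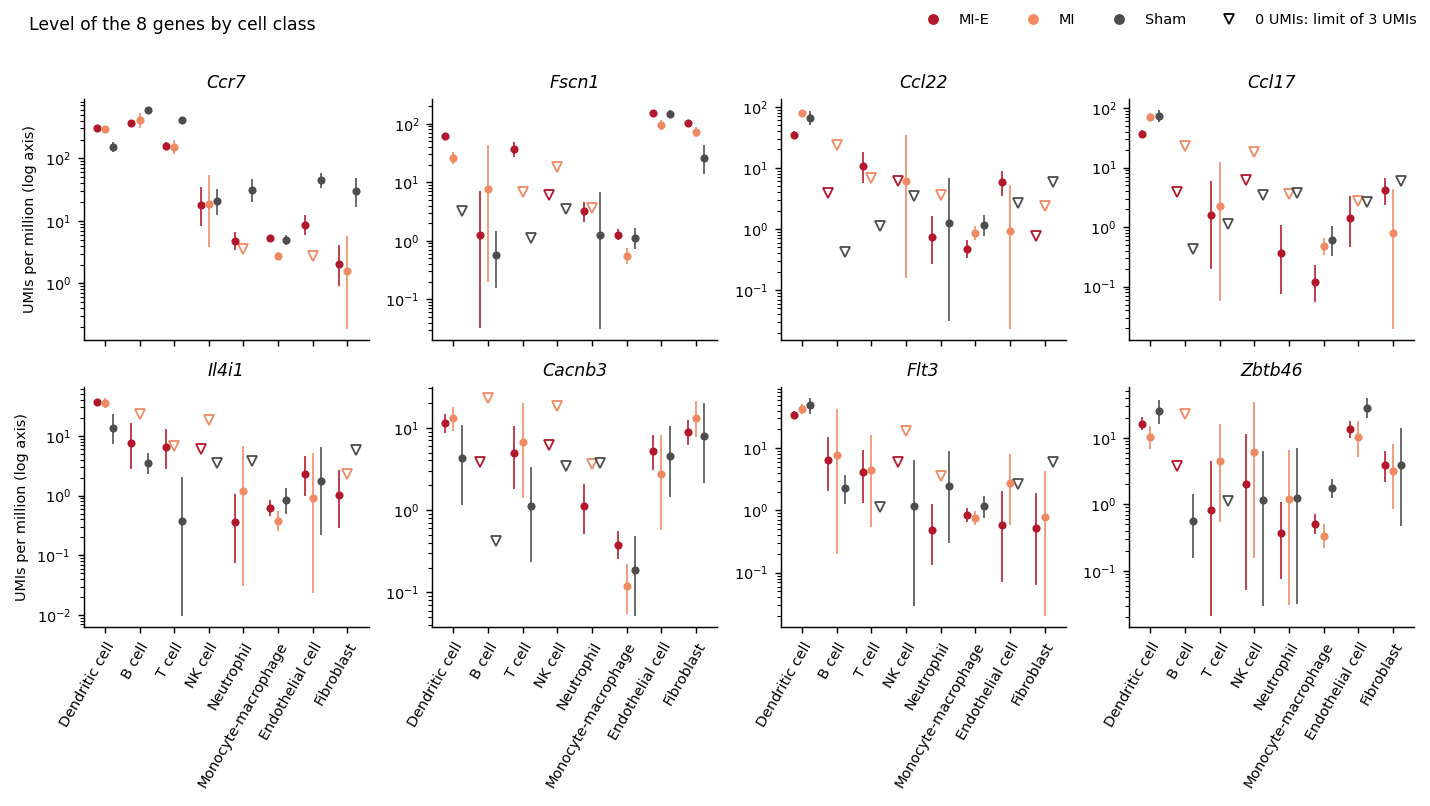
Level of each of the 8 genes, in CPM on a log axis, in 8 cell classes of MI-E (red), MI (orange) and Sham (grey). Lines are exact Poisson intervals and open triangles give the limit of 3 UMIs where none was counted. Ccl22, Ccl17, Il4i1 and Flt3 stand highest in dendritic cells in all 3 libraries, while Ccr7 is also high in B and T cells and Fscn1 in endothelial cells and fibroblasts.

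Cells with UMIs of at least 2 of the 8 genes numbered 288 in MI-E, 136 in MI and 117 in Sham. They made up 2.40% (2.14 to 2.69) of kept cells in MI-E, 1.66% (1.40 to 1.96) in MI and 1.16% (0.959 to 1.39) in Sham. When each cell was thinned to 1500 UMIs, which left out 768 cells of MI-E, 372 of MI and 1751 of Sham, the shares were 0.463%, 0.384% and 0.252%. The order was the same, with smaller differences in percentage points between the libraries. These thinned shares rest on only 52, 30 and 21 cells of MI-E, MI and Sham. At least 3 genes were found in 94, 48 and 17 cells, at least 4 in 47, 18 and 3 cells, and at least 5 in 21, 10 and 2 cells of MI-E, MI and Sham. At least 1 gene was found in 10.3% of cells in MI-E, 7.47% in MI and 28.6% in Sham. The Sham value was the highest of the 3, and B cells, most of which carried Ccr7 there, made up 2961 of its kept cells, against 317 in MI-E and 47 in MI.

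**Figure D2:**
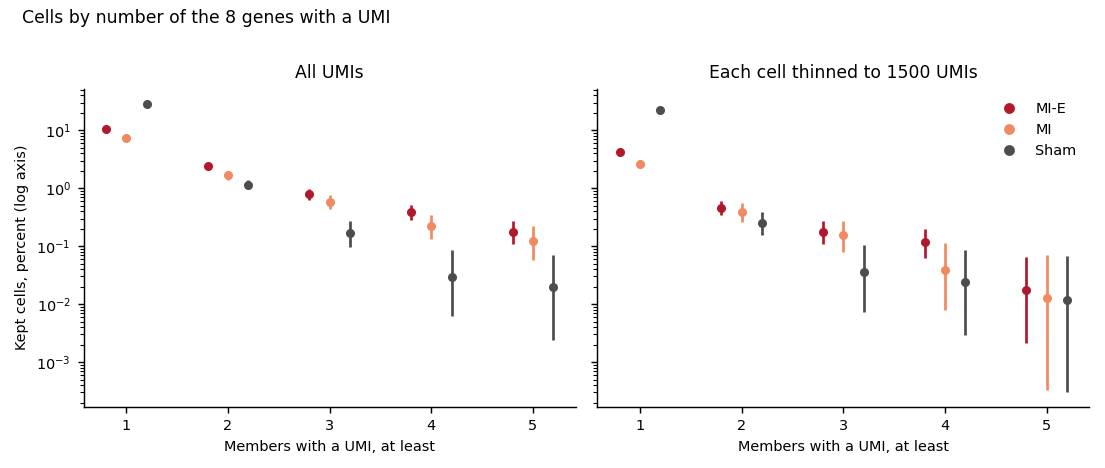
Share of kept cells, in percent on a log axis, with UMIs of at least 1 to 5 of the 8 genes, with all UMIs (left) and with each cell thinned to 1500 UMIs (right), for MI-E (red), MI (orange) and Sham (grey). Lines are exact binomial intervals. For at least 1 gene Sham stands highest at 28.6%, while from 2 genes on MI-E is highest at 2.40% and Sham lowest at 1.16%.

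Cells with more members were more often dendritic cells, up to at least 4 members. Of the 541 cells with at least 2 members over the 3 libraries, 272 (50.3%) were in the dendritic cell class, 91 (16.8%) were endothelial cells, 70 (12.9%) monocyte-macrophage cells, 49 (9.06%) fibroblasts and 36 (6.65%) B cells. Of the 159 cells with at least 3 members, 113 (71.1%) were dendritic cells, and of the 68 with at least 4, 53 (77.9%) were. Of the 33 cells with at least 5, 25 (75.8%) were. The pairs differed by class. Fscn1 with Zbtb46 was the pair in 56 of the 91 endothelial cells, Fscn1 with Cacnb3 in 30 of the 49 fibroblasts, and Ccr7 with Il4i1 in 21 of the 36 B cells. Among the 272 dendritic cells, Ccr7 with Flt3 was found in 91, Ccr7 with Il4i1 in 82 and Ccr7 with Ccl22 in 76. Within the dendritic cell class, cells with at least 2 members made up 29.7% (25.8 to 33.8) in MI-E, 29.0% (23.9 to 34.6) in MI and 24.4% (17.3 to 32.7) in Sham, and these intervals overlapped. In neutrophils, which should lack most of these genes, the share was 0.0666% in MI-E and 0.238% in Sham, at median depths of 2108 and 1742.5 UMIs, while no cell of 359 in MI had 2 members, which allows up to 0.836%. Median depths in the dendritic cell class were 8655, 8760 and 7365 UMIs, so the depths of the classes differ.

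Ccr7 encodes the chemokine receptor that leads mature dendritic cells and naive lymphocytes towards lymph nodes, and lies on chromosome 11, at chr11:99144196-99155077 on the minus strand (GRCm38). In dendritic cells it reached 305 CPM (290 to 320) in MI-E, 299 CPM (279 to 321) in MI and 152 CPM (129 to 180) in Sham. These were 1537, 807 and 144 UMIs in 216, 119 and 26 cells, or 41.4%, 40.6% and 19.8% of the class. MI-E and MI were alike and both stood above Sham. In neutrophils a Ccr7 UMI was found in 0.899% of cells in MI-E, in none of 359 in MI and in 3.81% in Sham, below the share in dendritic cells of the same library. In B cells the level was 371 CPM in MI-E, 403 CPM in MI and 582 CPM in Sham, and in T cells 159, 153 and 405 CPM. The order was therefore B cells, dendritic cells and T cells in MI-E, and B cells, T cells and dendritic cells in Sham, with no overlap of the intervals between neighbours. The MI library held only 47 B cells, with an interval of 301 to 529 CPM that overlapped that of its dendritic cells. In both lymphocyte classes Sham was the highest library, the reverse of dendritic cells.

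Fscn1 encodes fascin, the actin-bundling protein of the dendrites of mature dendritic cells, and lies at chr5:142960343-142973185 on the plus strand. In dendritic cells 310 UMIs in 28 cells were counted in MI-E, 70 UMIs in 13 cells in MI and none in the 131 cells of Sham. The levels were 61.5 CPM (54.8 to 68.7) in MI-E and 26.0 CPM (20.2 to 32.8) in MI, against a limit of 3.18 CPM in Sham. It was carried by 5.36% of dendritic cells in MI-E and 4.44% in MI, while 6 of 3003 neutrophils in MI-E and none of 359 in MI had a UMI. Its highest levels lay outside the class, at 151, 95.4 and 150 CPM in endothelial cells and 104, 72.7 and 25.6 CPM in fibroblasts of MI-E, MI and Sham. Both stromal classes were present in spite of the sort on CD45.

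Cacnb3 encodes a beta subunit of voltage-gated calcium channels that is used as a marker of migratory dendritic cells, and lies at chr15:98630840-98644529 on the plus strand. Dendritic cells held 58 UMIs in 19 cells in MI-E, 35 UMIs in 10 cells in MI and 4 UMIs in 3 cells in Sham, which gives 11.5 CPM (8.73 to 14.9), 12.98 CPM (9.04 to 18.1) and 4.24 CPM (1.15 to 10.8). Fibroblasts had 8.83, 13.3 and 7.89 CPM, and the intervals of the 2 classes overlapped in each library.

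Ccl22 and Ccl17 encode the CCR4 ligands and lie close together on the plus strand of chromosome 8, at chr8:94745590-94751699 and chr8:94810453-94812036, with 58753 bases between them. Their promoters are shown because these genes were alike in level and lie close together. Each window runs from 250 bases before to 50 after the RefSeq start (GRCm38.p6), at chr8:94745434-94745733 for Ccl22 and chr8:94810203-94810502 for Ccl17, both on the plus strand. Capitals mark GAGGAA, a core motif of PU.1, a transcription factor of myeloid and dendritic cells.
Ccl22: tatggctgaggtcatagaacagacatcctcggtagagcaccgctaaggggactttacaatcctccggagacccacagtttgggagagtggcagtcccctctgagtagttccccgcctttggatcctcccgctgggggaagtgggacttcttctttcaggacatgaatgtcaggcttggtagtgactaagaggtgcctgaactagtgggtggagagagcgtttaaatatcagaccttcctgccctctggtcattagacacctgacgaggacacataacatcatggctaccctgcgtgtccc
Ccl17: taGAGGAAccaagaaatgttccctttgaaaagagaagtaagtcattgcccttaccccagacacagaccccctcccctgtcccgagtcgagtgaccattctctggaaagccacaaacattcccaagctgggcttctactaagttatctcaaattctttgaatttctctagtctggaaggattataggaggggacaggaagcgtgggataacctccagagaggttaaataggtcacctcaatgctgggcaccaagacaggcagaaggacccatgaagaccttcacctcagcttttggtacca
Searched on both strands, GAGGAA was found in the windows of 2 of the 7 members matched in the RefSeq promoter table used here, Ccl17 and Il4i1, and in 9289 of 32851 promoter windows of that length in the same table (28.3%). The kappaB motif was found in none of the 7, and in 8.46% of all windows. With no kappaB match there was no overlap between the motifs, and a match or its absence describes these letters only.

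Ccl22 stood at 35.1 CPM (30.1 to 40.7) in dendritic cells of MI-E, 78.3 CPM (68.1 to 89.6) in MI and 65.7 CPM (50.3 to 84.2) in Sham. Ccl17 stood at 36.5 CPM (31.4 to 42.1) in MI-E, 70.5 CPM (60.8 to 81.2) in MI and 74.1 CPM (57.8 to 93.7) in Sham. For both chemokines MI-E was the lowest library, and MI and Sham overlapped. Ccl22 was found in 43, 40 and 20 dendritic cells and Ccl17 in 25, 31 and 14 cells of MI-E, MI and Sham, with 177, 211 and 62 UMIs of Ccl22 and 184, 190 and 70 UMIs of Ccl17. A few cells carried much of each total. The highest cell held 37 of 177 Ccl22 UMIs in MI-E, 54 of 211 in MI and 8 of 62 in Sham. For Ccl17 it held 45 of 184 UMIs in MI-E, 40 of 190 in MI and 30 of 70 in Sham. Ccl17 was the member most restricted to the class: 84.0% of its UMIs in MI-E, 83.0% in MI and 84.3% in Sham were in dendritic cells. For Ccl22 the shares were 69.7%, 75.4% and 68.1%. Outside the dendritic cell class Ccl22 exceeded 5 CPM in T cells of MI-E at 10.6 CPM, from 4 cells, in endothelial cells of MI-E at 5.77 CPM, from 2 cells, and in the 36 NK cells of MI, from 1 UMI.

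Il4i1 encodes a secreted L-amino-acid oxidase that breaks down aromatic amino acids and dampens T cells, and lies at chr7:44816387-44840809 on the plus strand, where it overlaps Nup62 on the same strand, so that reads of the shared stretch cannot be told apart. It stood at 36.5 CPM (31.4 to 42.1) in dendritic cells of MI-E, 36.0 CPM (29.2 to 43.9) in MI and 13.8 CPM (7.33 to 23.5) in Sham. It was found in 65 cells of MI-E (12.5%), 29 of MI (9.90%) and 6 of Sham (4.58%), against 0.0999% and 0.279% of neutrophils in MI-E and MI and none of 420 in Sham. MI-E and MI overlapped and both stood above Sham. Dendritic cells held 70.5% of its UMIs in MI-E, 75.2% in MI and 21.0% in Sham, where 25 of the UMIs were in B cells and 13 in dendritic cells.

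Flt3 encodes the receptor for the growth factor that maintains dendritic cells and their progenitors, and lies at chr5:147330741-147400489 on the minus strand. It stood at 34.5 CPM (29.6 to 40.0) in dendritic cells of MI-E, 42.3 CPM (34.9 to 50.8) in MI and 48.7 CPM (35.7 to 65.0) in Sham, with all intervals overlapping. It was spread thinly over many cells, with 117 of 522 cells in MI-E, 81 of 293 in MI and 33 of 131 in Sham. Zbtb46 encodes a transcription factor of classical dendritic cells that endothelial cells also use, and lies at chr2:181387762-181459426 on the minus strand. It stood at 16.5 CPM (13.1 to 20.4) in dendritic cells of MI-E, 10.4 CPM (6.90 to 15.01) in MI and 25.4 CPM (16.3 to 37.8) in Sham. Sham lay above MI without overlap. Endothelial cells had 13.6, 10.2 and 28.7 CPM, which overlapped the dendritic cell value of the same library in each case. For dendritic cells and endothelial cells alike the order of the libraries was Sham, MI-E and MI. In dendritic cells MI-E overlapped both Sham and MI.

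Set against each other, the dendritic cells of MI had 4 of the 8 genes at least 1.5-fold higher and 1 at least 1.5-fold lower than those of Sham. Of all 7458 genes with a mean of at least 5 CPM, 25.7% were that much higher and 11.7% that much lower. The 4 were Ccr7 at 1.96-fold (1.64 to 2.36), Il4i1 at 2.61-fold (1.46 to 5.08), Cacnb3 at 3.07-fold (1.10 to 11.9) and Fscn1. Fscn1 stood at 8.17-fold against a limit of 3 counts over the class in Sham, a value that leaves out counting error in its own UMIs. The 1 was Zbtb46, at a ratio of 0.409 (0.228 to 0.737). Ccl22, Ccl17 and Flt3 had ratios of 1.19, 0.951 and 0.868, and each interval included 1. The median log2 ratio over all genes was 0.19.

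For MI-E over MI, 2 of the 8 were higher and 2 lower, while 8.79% of 7564 genes were higher and 4.44% lower. Fscn1 was higher at 2.37-fold (1.82 to 3.11) and Zbtb46 at 1.58-fold (1.02 to 2.53). Ccl22 was lower at a ratio of 0.448 (0.365 to 0.550) and Ccl17 at 0.518 (0.420 to 0.637). Ccr7 at 1.02, Il4i1 at 1.01, Cacnb3 at 0.886 and Flt3 at 0.816 had intervals that included 1. For MI-E over Sham, 4 were higher and 3 lower, against 30.5% and 10.2% of 7500 genes. Ccr7 stood at 2.00-fold (1.68 to 2.39), Il4i1 at 2.65-fold (1.51 to 5.07) and Cacnb3 at 2.71-fold (1.00 to 10.3). Fscn1 stood at 19.3-fold against the same limit of 3 counts in Sham, again without counting error in its own UMIs. Ccl17 stood at 0.492 (0.372 to 0.658), Ccl22 at 0.534 (0.398 to 0.726) and Zbtb46 at 0.647 (0.407 to 1.07). The last comparison shares its libraries with the other two and is not independent of them.

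**Figure D3:**
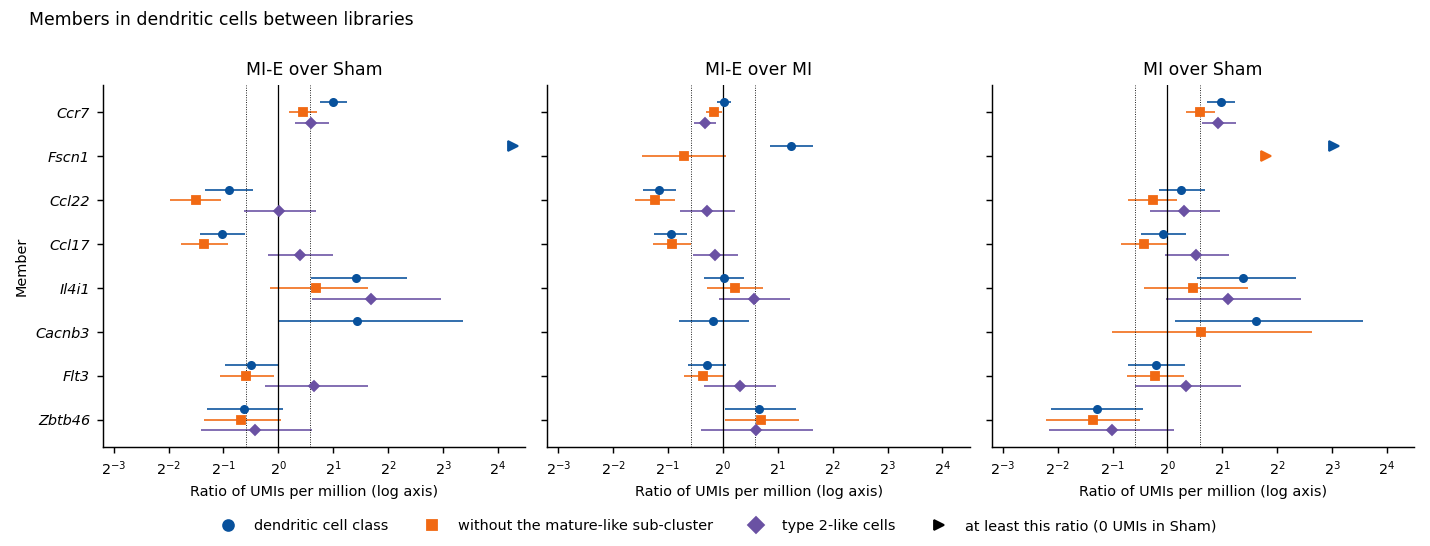
Ratio of CPM between libraries, on a log axis, for MI-E over Sham, MI-E over MI and MI over Sham, in the dendritic cell class (circles), without its mature-like sub-cluster (squares) and in type 2-like cells (diamonds). Lines are exact intervals, dotted lines mark 1.5-fold, arrows are lower bounds, and genes under a mean of 5 CPM are not drawn. The Fscn1 ratio of MI-E over MI is 2.37 with the mature-like cells and 0.610 without them.

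These ratios rested in part on few cells. The highest dendritic cell of Sham held 53 of 144 Ccr7 UMIs (36.8%) and 30 of 70 Ccl17 UMIs (42.9%). With the highest cell of each library left out for each gene, Ccr7 stood at 2.90-fold (2.33 to 3.65) for MI over Sham and 3.03-fold (2.45 to 3.78) for MI-E over Sham, and Ccl17 at 0.6505 (0.455 to 0.949) for MI-E over Sham. Zbtb46 then stood at 0.713 (0.437 to 1.21) for MI-E over Sham, short of 1.5-fold, which left 2 members lower in that comparison. The class was also composed differently in each library. Of the 131 Sham cells, 66 fell in a single type 2-like sub-cluster (number 0) that held 4 cells of MI-E and 12 of MI, whereas the neutrophil-like sub-cluster (number 5) held 92, 27 and 0 cells and the macrophage-like one (number 11) 61, 20 and 0 cells of MI-E, MI and Sham. Without these, the B cell-like and the plasmacytoid-like sub-clusters, Ccl22 stood at 0.676 (0.533 to 0.858) and Ccl17 at 0.725 (0.574 to 0.914) for MI-E over MI, short of 1.5-fold, and Fscn1 at 4.63-fold (3.36 to 6.51). Fewer cells of a kind and less RNA per cell cannot be told apart in such sums.

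Among 13 sub-clusters of the class, 1 was led by mature dendritic cell markers. Of the 8 genes, 7 had their highest value in it, Flt3 only within counting error, although none had been used to form or name it. As these are the cells clustered, the levels are a description. It held 30 cells, 21 of them from MI-E, 9 from MI and none of the 131 from Sham. These were 4.02% (2.51 to 6.08) of dendritic cells in MI-E, 3.07% (1.41 to 5.75) in MI and 0% (0 to 2.78) in Sham. The Sham interval overlapped both others. A sub-cluster without cells of a library may reflect that library as well as a cell type. Its leading genes were Ccl5, Cd200, Serpinb6b, Zmynd15, Nudt17, Fabp5, Socs2, Il12b, Eno3 and Anxa3. Of the 11 mature markers 10 were detected in each of MI-E and MI, with Apol7c at 0. Of the 9 type 1 markers 4 were detected in MI-E and 2 in MI, summing to 1052 and 631 CPM, of which Irf8 made up 872 and 528 CPM, while Xcr1 and Clec9a were at 0 in both. Of the 9 type 2 markers 6 were detected in MI-E and 5 in MI, summing to 630 and 411 CPM, of which H2-DMb2 made up 381 and 249 CPM, while Cd209a and Clec10a were at 0 in both. Over the 30 cells Ccr7 stood at 3394 CPM, Fscn1 at 1495, Ccl22 at 621, Il4i1 at 578, Ccl17 at 409, Cacnb3 at 282, Flt3 at 94.0 and Zbtb46 at 32.9 CPM. Differences between these genes are not levels per transcript length and are not ranked. Zbtb46 was higher at 39.1 CPM (21.9 to 64.5) in a type 2-like sub-cluster (number 2), in which Ccl22 and Ccl17 were at 0. That interval overlapped the Zbtb46 interval of the mature-like cells (13.2 to 67.8).

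**Figure D4:**
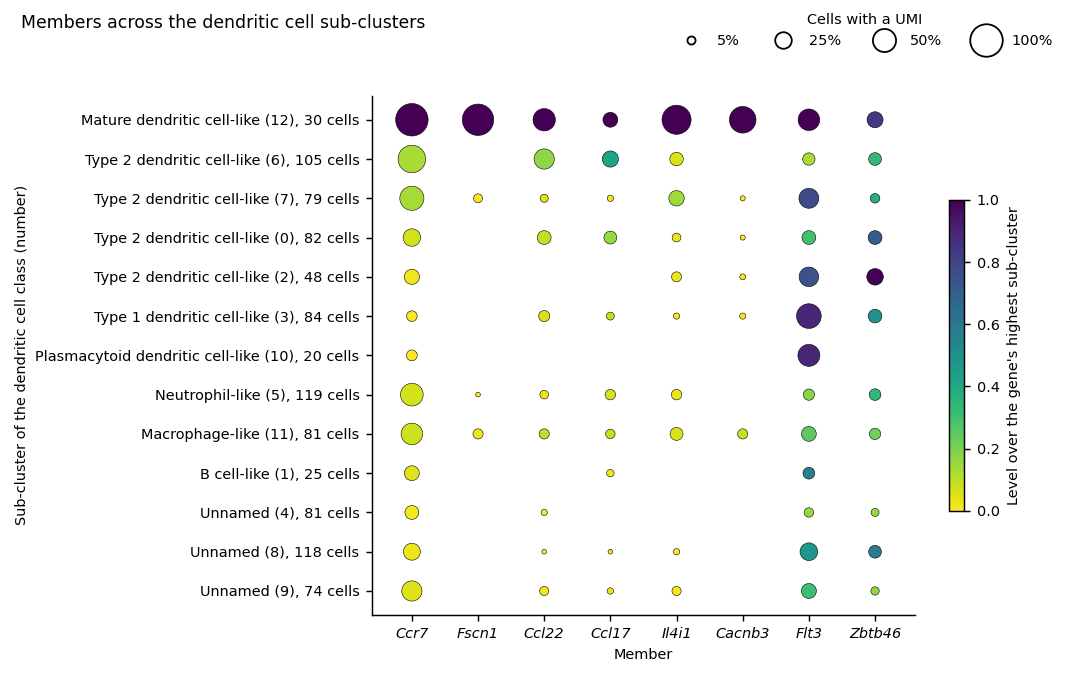
Share of cells with a UMI (dot area) and level relative to the gene's highest sub-cluster (colour) for the 8 genes in the 13 sub-clusters of the dendritic cell class, with the number of cells. A gene with no cell carrying it has no dot. All genes but Zbtb46 are highest in the 30 mature dendritic cell-like cells, Flt3 only within counting error. Ccl22, Ccl17 and Ccr7 are next highest in type 2-like sub-clusters.

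Cell by cell, Ccr7 was present in all 30. Its UMIs ran from 8 to 66 in MI-E, with a median of 19, and from 3 to 53 in MI, with a median of 21. Fscn1 was found in 28 of the 30 cells, with 0 to 38 UMIs and a median of 11 in MI-E and 0 to 12 with a median of 4 in MI. The ranges of both genes overlapped between the libraries. Il4i1 was found in 24 cells and Cacnb3 in 20, with medians of 2 and 2 UMIs in MI-E and 6 and 1 in MI. Ccl22 was found in 14 cells and Ccl17 in 6, and all 6 Ccl17 cells also held Ccl22. In most of the 30 cells the chemokines were therefore not detected, and total UMIs per cell, with a median of 5950 in MI-E and 7599 in MI, set a limit to detection. Flt3 was found in 13 cells and Zbtb46 in 7, with at most 4 UMIs. In MI-E 2 cells held all 8 genes, and the first of them had 35 UMIs of Ccr7, 38 of Fscn1, 37 of Ccl22, 17 of Ccl17, 7 of Il4i1, 2 of Cacnb3 and 1 each of Flt3 and Zbtb46. In sums over these cells Ccr7 stood at 3612 CPM in MI-E and 2933 in MI, a ratio of 1.23 (1.04 to 1.46). Fscn1 stood at 1917 and 601 CPM, a ratio of 3.19 (2.29 to 4.54). Ccl22 stood at 443 and 997 CPM, a ratio of 0.444 (0.311 to 0.634), and Ccl17 at 291 and 660 CPM, a ratio of 0.440 (0.282 to 0.686). Of the 45 Ccl17 UMIs in MI, 40 came from 1 cell, which also held 40 of the 68 Ccl22 UMIs.

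**Figure D5:**
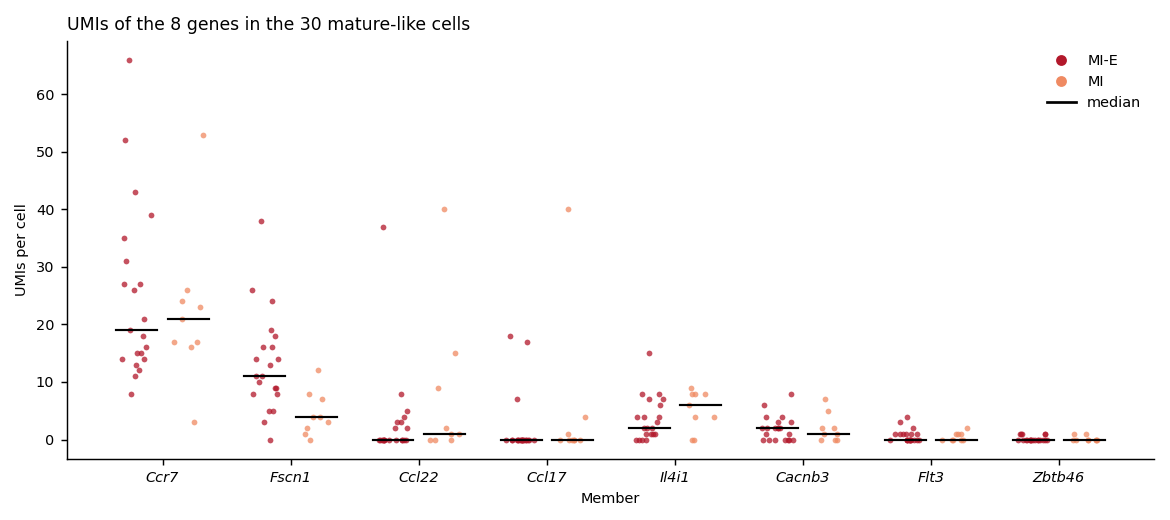
UMIs of each of the 8 genes in each of the 30 mature-like cells, 21 of MI-E (red) and 9 of MI (orange), with black lines at the medians. Ccr7 lies between 8 and 66 UMIs in MI-E and between 3 and 53 in MI, Fscn1 has medians of 11 in MI-E and 4 in MI, and Ccl22 and Ccl17 are carried by few cells.

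The mature-like cells carried different shares of each gene's UMIs in the class. In MI-E they held 89.4% of Fscn1, 72.4% of Cacnb3, 41.3% of Il4i1, 36.2% of Ccl22, 34.0% of Ccr7, 22.8% of Ccl17, 8.62% of Flt3 and 6.02% of Zbtb46. In MI they held 58.6% of Fscn1, 51.4% of Cacnb3, 48.5% of Il4i1, 32.2% of Ccl22, 24.8% of Ccr7, 23.7% of Ccl17, 4.39% of Flt3 and 7.14% of Zbtb46. In both libraries most Ccr7, Ccl22, Ccl17, Il4i1, Flt3 and Zbtb46 UMIs of the class thus lay outside them. Only for Fscn1 and Cacnb3 did most lie inside. Without the mature-like cells, Fscn1 stood at 0.610 (0.359 to 1.04) for MI-E over MI, Ccr7 at 1.51 (1.26 to 1.83) for MI over Sham and 1.36 (1.14 to 1.63) for MI-E over Sham, and Il4i1 at 1.38 (0.740 to 2.77) and Cacnb3 at 1.53 (0.498 to 6.24) for MI over Sham. The ratio of Fscn1 thereby changed direction. Ccr7 for MI-E over Sham and Il4i1 for MI over Sham fell short of 1.5-fold, as did Cacnb3 for MI over Sham on the scale of CPM plus 1 used for calls. For MI-E over Sham, Fscn1 and Cacnb3 had a mean under 5 CPM and were not measured. For MI-E over MI, Ccl22 stood at 0.424 without them and 0.448 with them, and Ccl17 at 0.525 and 0.518.

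Outside the mature-like cells the members were spread differently over the class. Of Fscn1, macrophage-like cells held 26 UMIs in MI-E and 26 in MI, and type 2-like cells 6 and 3. Of Cacnb3, macrophage-like cells held 15 and 16 UMIs, and type 2-like cells 1 and 0. Of Ccl17, macrophage-like cells held 10 and 34 UMIs in MI-E and MI, and type 2-like cells 98 and 102, so its order was the reverse of Fscn1 and Cacnb3. These sums rest on few cells. In MI 1 macrophage-like cell held 33 of the 34 Ccl17 UMIs, 10 of the 26 Fscn1 UMIs and 10 of the 16 Cacnb3 UMIs. The type 2-like Ccl17 UMIs came from 7 of 124 cells in MI-E and 22 of 118 in MI. The type 2-like sub-cluster numbered 6, with 36 cells of MI-E, 67 of MI and 2 of Sham, had Ccl17 at 170 CPM, Ccl22 at 106 CPM and Ccr7 at 451 CPM, and its leading genes included Mgl2, Dcstamp and Mmp12. The sub-cluster numbered 7, with 47, 31 and 1 cells, had Ccr7 at 456 CPM and Il4i1 at 82.0 CPM but Ccl17 at 10.9 CPM. Over all type 2-like cells Ccl22 stood at 59.5, 72.5 and 58.8 CPM and Ccl17 at 89.8, 98.7 and 68.6 CPM in MI-E, MI and Sham. For MI-E over MI the ratios were 0.821 (0.580 to 1.16) and 0.910 (0.682 to 1.21), and both intervals included 1. Of the dendritic cells, type 2-like cells made up a different share in each library, and the part of that share in the chemokine ratios was not tested. In the type 1-like sub-cluster, with 29 cells of MI-E, 26 of MI and 29 of Sham, Ccl22 had 1, 2 and 32 UMIs and Ccl17 had 0, 1 and 34 UMIs. In Sham 30 of the 34 Ccl17 UMIs came from 1 cell, while Ccl22 was found in 7 of the 29 cells. Plasmacytoid-like and type 1-like cells had Flt3 at 83.8 CPM (45.8 to 141) and 84.2 CPM (66.6 to 105). Both overlapped the mature-like cells, at 94.0 CPM (57.4 to 145). In MI-E the mature-like cells had 104 CPM (58.1 to 171), plasmacytoid-like cells 49.5 CPM (18.2 to 108) and type 1-like cells 82.5 CPM (53.9 to 121). In MI the mature-like cells had 73.3 CPM (23.8 to 171), from 5 UMIs, beside 202 CPM (87.0 to 397) and 90.9 CPM (60.4 to 131). Within each library all of these intervals overlapped.

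Other genes of the mature programme did not all follow the members between libraries. The lists were chosen with earlier results of these data known and are described by counts, to be read beside the shares over all genes, which were 25.7% higher and 11.7% lower for MI over Sham. For MI over Sham, 4 of 8 measured regulatory genes were at least 1.5-fold higher, Cd274 and Pdcd1lg2, which encode the PD-1 ligands, Cd200, an inhibitory surface protein, and Aldh1a2, which makes retinoic acid. Fas and Socs3 were lower. Of 6 genes for migration and adhesion, 4 were lower and none higher, with Marcks at 206 CPM in MI and 515 in Sham, and Icam1 at 53.0 CPM in MI and 161 in Sham. Of 8 costimulation and maturation genes none was higher, and Cd80 and Icosl, ligands of T cell receptors for costimulation, were lower. Of 7 class II genes Cd74, the invariant chain, was lower. Among 12 other mature dendritic cell genes Ccl5, Ankrd33b, Basp1 and Tbc1d4 were higher and Serpinb6b lower. The list medians on the log2 scale were 0.39 for regulatory genes, -1.03 for migration and adhesion and -0.44 for costimulation, beside 0.19 for all genes.

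For MI-E over MI, where 8.79% of all genes were higher and 4.44% lower, Cd200 and Socs2 were higher and Aldh1a2 and Socs1 lower among 8 regulatory genes. Cd83, a maturation marker, and Il12b, a subunit of interleukin 12, were the 2 lower genes of 8 for costimulation and maturation. Cd83 stood at 248 CPM in MI-E and 391 in MI, and Il12b at 7.14 and 23.4 CPM. None of 6 migration and adhesion genes and none of 7 class II genes passed 1.5-fold, while Serpinb6b and Serpinb9 were higher among 14 other mature dendritic cell genes. For MI-E over Sham, 7 of 12 other mature dendritic cell genes were higher and none lower, while 4 of 7 class II genes, H2-Ab1, H2-Eb1, Cd74 and H2-DMa, were lower and none higher. Of 8 costimulation and maturation genes, Cd80, Cd83, Icosl and Il12b were lower and none was higher. Of 6 migration and adhesion genes, Marcks, Marcksl1 and Icam1 were lower and none was higher. Among 8 regulatory genes 4 were higher and 2 lower. Over all genes 30.5% were higher and 10.2% lower in that comparison. The median log2 ratio was -0.63 for class II genes, -0.67 for costimulation and maturation and -0.70 for migration and adhesion. It was 0.69 for other mature dendritic cell genes and 0.17 for regulatory genes, beside 0.27 for all genes.

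Within the class, cells with at least 2 of Ccr7, Fscn1, Ccl22, Ccl17, Il4i1 and Cacnb3 were set against the other dendritic cells of the same library. There were 90 such cells in MI-E and 56 in MI. Sham had 16 and was left out. Their median UMIs were 9470.5 in MI-E and 9270 in MI, against 8448.5 and 8508 in the other cells, and 21 of the 90 and 9 of the 56 were mature-like. More were type 2-like, at 29 of the 90 and 38 of the 56. None was type 1-like, while the other cells held 29 type 1-like cells in MI-E and 26 in MI. The part of this makeup in the ratios below was not tested. In MI-E 32 of the 90 fell in sub-clusters led by markers of other lineages, and in MI 6 of the 56. Outside the members, 329 of 7071 genes (4.65%) were at least 1.5-fold higher in both libraries and 365 (5.16%) at least 1.5-fold lower. All 14 measured genes of the list of other mature dendritic cell genes were higher in both, as were 6 of 8 regulatory genes, 6 of 9 for costimulation and maturation, and 5 of 6 for migration and adhesion. None of these lists had a gene lower in both. Their median log2 ratios in MI-E were 1.66, 1.75, 1.16 and 1.00, and in MI 1.51, 1.98, 1.37 and 0.95, beside -0.06 and -0.12 for all genes. None of 7 class II genes passed in either direction. Some of these genes, among them Cd200, Socs2, Relb and Tbc1d4, also served to name the mature-like sub-cluster. Measured genes had a mean of at least 5 CPM over the selected and the other cells in each library. A gene near 0 in the other cells, such as Nudt17 at 44.6 and 0.246 CPM in MI-E, passed only through the selected cells. Such a gene could only be called higher, so the list counts are a description and not a test.

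Cd200 stood at 103 CPM in those cells and 2.22 CPM in the other dendritic cells of MI-E, a ratio of 46.6 (23.6 to 105), and at 60.8 and 1.87 CPM in MI, a ratio of 32.5. Ccl5, a chemokine for T cells, stood at 1522 and 86.5 CPM in MI-E, a ratio of 17.6, and at 1143 and 151 CPM in MI, a ratio of 7.58. Fabp5, a fatty acid binding protein, had ratios of 4.002 in MI-E and 17.0 in MI. Tbc1d4, a regulator of vesicle traffic, had 6.96 and 5.22. Further genes at the top were Zmynd15, Eno3, Anxa3, Tspan3, Uap1, Swap70, Stat4, Cd63 and 3 members of the Bcl2a1 family of survival genes, whose near-identical copies can share reads. Their ratios ran from 2.82 to 18.9 over both libraries, with Cd63, a membrane protein of endosomes, at 2.82 in MI-E and 9.50 in MI. At the other end Txndc16, a leading gene of type 1-like cells here, was 16.5-fold lower in MI-E and 10.7-fold lower in MI. Naaa, Cd7, Ly6c2, Zfp36l2, Tnfaip8l2, Fdps, Txndc15, Hspa1a and Cldnd1 were between 2.02-fold and 7.69-fold lower. Between the libraries, the cells selected by this rule, which differed in makeup, had Ly6a at 772 CPM in MI-E and 143 in MI, a ratio of 5.40. Apoe stood at 1617 and 476 CPM, a ratio of 3.40, and Ly6c2, Surf4 and Serpinb6b were also higher. Ccl4 stood at 189 CPM in MI-E and 1212 in MI, a ratio of 0.156, and Ifit1, Gdf15, Cd209a and Areg were also lower. Apoe is a macrophage marker, Ly6c2 a monocyte marker and Cd209a a type 2 dendritic cell marker, and the part of the makeup of these cells in the ratios was not tested.

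Across 22 combinations of class and library with at least 50 cells, the genes outside the set whose level ran most like the mean of those 6 members were Phlpp1 (Pearson r = 0.855), Grasp (0.838), Il12b (0.798), Ppm1m (0.796), Afmid (0.792), Ctnnd2 (0.787), Tbc1d4 (0.774), Nectin1 (0.755), Sept3 (0.754) and H2-DMb1 (0.752), among 8520 genes. The 22 combinations share 3 libraries and are not independent. All 10 had their highest level in dendritic cells. These r values describe the units and carry no test. Among the members themselves Ccl22 and Ccl17 had the highest r, at 0.894, Ccl17 and Flt3 had 0.857, and Ccr7 and Fscn1 had -0.18.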

How the data were processed

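Hearts of MI-E, MI and Sham mice gave 1 library each of CD45-sorted cells (10x 3' chemistry, per the labels' protocols). The authors deposited raw UMI counts per gene and cell, made with Cell Ranger 5.0.1 on mm10 per the submitters' processing notes. The libraries held 104562768, 98814001 and 41140109 UMIs in MI-E, MI and Sham. The counts were analysed here with Python 3.11.15, scanpy 1.11.5, igraph 0.11.9 and scipy 1.17.1.

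Cells with under 200 genes or over 10% mitochondrial UMIs were removed, as were doublets marked by Scrublet, by its automatic threshold in MI-E (291) and by the expected rate of 0.8% per 1000 barcodes in MI (647) and Sham (1013). Counts were scaled to 10000 per cell, and cells were clustered on 2000 variable genes without the 8 members, with 30 principal components, 15 neighbours and Leiden resolution 1. Clusters were named from 21 marker lists, none holding a member, by thresholds set after the clusters were seen. The dendritic cell class was clustered again with 1000 variable genes and 15 components. The members and gene lists were chosen with earlier results of these data known.

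UMIs were summed per class and library. Levels carry exact Poisson, shares exact Clopper-Pearson and ratios exact conditional 95% intervals. These take UMIs as independent, although 1 cell can carry many. A count of 0 is limited at 3 counts over the class. A gene was called at 1.5-fold on CPM plus 1, with a mean of at least 5 CPM. The genes named besides the lists were the 15 highest and 10 lowest by the smaller change of both libraries with at least 50 CPM, the 5 highest and 5 lowest between libraries with at least 100 CPM, and the 10 highest r with at least 20 CPM in 1 unit. Mitochondrial, ribosomal protein, haemoglobin, immunoglobulin, T cell receptor and predicted genes were left out of them. Of the lists, genes at either end were named. Scripts were tested on simulated data. Alternatives covered doublets, cell filters, depth, clustering, scaling, the minimum CPM, the added CPM and the members counted. Further ones, on sub-clusters left out, the dendritic cell class alone and each gene's highest cell, were chosen after seeing the data.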

Additional observations from a re-analysis of the deposited data

Results flagged for a closer look

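Ccr7 and Il4i1 differed in opposite directions between type 2-like and type 1-like dendritic cells. The difference was not tested, since each group has 1 library. For MI over Sham, the Ccr7 ratio was 1.90 (1.55 to 2.36) in type 2-like cells and 0.184 (0.0344 to 0.643) in type 1-like cells. For MI-E over Sham it was 1.52 (1.23 to 1.89) and 0.360 (0.115 to 0.969). For MI-E over Sham the Il4i1 ratio was 3.21 (1.52 to 7.81) in type 2-like cells and 0.192 (0.00406 to 1.72) in type 1-like cells. The type 1-like values rest on few UMIs, with 6 of Ccr7 in MI-E, 3 in MI and 16 in Sham, and 1 of Il4i1 in MI-E, none in MI and 5 in Sham. In Sham 13 of the 16 Ccr7 UMIs and all 5 Il4i1 UMIs came from the same cell, which also held 30 UMIs of Ccl17 and 6 of the 8 genes.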

How the results depend on the processing

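No paired analysis was possible because each group has 1 library. The share of cells with at least 2 members in MI-E, MI and Sham was 0.463%, 0.384% and 0.252% when thinned to 1500 UMIs, and 1.38%, 1.08% and 0.654% for at least 2 of the 6 members without Flt3 and Zbtb46. It was 0.784%, 0.587% and 0.168% for at least 3 members, and 29.7%, 29.0% and 24.4% in the dendritic cell class alone. With each library clustered alone, 7 members were higher and 0 lower for MI over Sham, 1 was higher for MI-E over MI, and 0 were lower for MI-E over Sham, where Ccl22, Ccl17 and Zbtb46 turned to log2 ratios of 0.28, 0.16 and 0.41. The Sham class of that setting had 388 cells, with macrophage markers at 10716 CPM in sum, against 1241 CPM in the joint clustering. Without the mature-like sub-cluster, 2 members were higher for MI over Sham, 1 for MI-E over MI and 1 for MI-E over Sham, and log2 ratios turned to -0.64 for Fscn1 (MI-E over MI) and -0.30 for Cacnb3 (MI-E over Sham). For MI-E over MI, 1 member was lower with doublets kept, 0 were lower without sub-clusters of other lineages, and 1 was higher with the median gene ratio set to 1 and with CPM plus 10. In cells with at least 2 of the 6 members, genes higher and lower numbered 549 and 560 for at least 3 of the 6, 678 and 942 with no minimum CPM, and 184 and 118 with CPM plus 10, and 603 were lower without sub-clusters of other lineages. The causes of these changes were not tested. The share over all genes in each of these settings is not given here. The counts therefore show only how a result moved between settings, and are not read as particular to the members. Of the other results for single members, 188 ratios kept their direction and side of 1.5-fold, 15 fell short of it and 8 newly passed it. Levels of single members stayed the same in 75 cases and moved in 21. Of these, 7 moved with doublets kept, 7 with each library clustered alone, 6 with members among the variable genes and 1 at Leiden resolution 2. The alternatives that leave out cells were chosen after seeing the data. Sham, with 131 dendritic cells and the lowest depth, limits every ratio over it.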

Other observations

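Ligands and receptors of the members were found in other cells of the same libraries. Ccl19, a ligand of CCR7, was found in fibroblasts at 27.0 CPM in MI-E (39 of 215 cells), 37.5 CPM in MI (18 of 84) and 69.0 CPM in Sham (11 of 75). Ccl21a, the other ligand, was carried by 3 of 265 endothelial cells in MI-E with 171 UMIs and by 3 of 350 in Sham with 300 UMIs, while none of 83 in MI had a UMI, which allows up to 3.61%. Both symbols stand on more than 1 gene identifier, and their counts were summed. Ackr4, a receptor that scavenges these ligands, stood at 7.28 CPM in fibroblasts of MI-E, 17.2 CPM in MI and 13.8 CPM in Sham. Ccr4, the receptor of CCL22 and CCL17, was found in 13 of 273 T cells in MI-E, 7 of 73 in MI and 4 of 716 in Sham. Flt3l, the ligand of FLT3, stood at 17.9, 18.02 and 2.25 CPM in T cells of MI-E, MI and Sham.

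Outside the mature-like sub-cluster, 16 cells held at least 5 members. In MI-E 3 of them were in the T cell class, with 10613, 17401 and 21026 UMIs, against a median of 3868 in that class. They held 7, 4 and 6 of the 10 T cell markers together with 8, 4 and 6 of the 11 mature dendritic cell markers. A neutrophil-class cell of MI-E with 7112 UMIs held 7 members, with 21 UMIs of Fscn1, and 7 of 8 neutrophil markers beside 7 of the mature dendritic cell markers. These cells were not among the marked doublets, and whether they hold RNA of more than 1 cell was not tested. A macrophage-like cell of MI with 18870 UMIs held 54 UMIs of Ccl22 and 33 of Ccl17, and 9 of the mature dendritic cell markers.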
